A study of Mus musculus with 13 samples.

Results

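The transcripts described here were 10 transcripts of the mitochondrial genome: mRNAs for subunits of complex I (mt-Nd1, mt-Nd2, mt-Nd4 and mt-Nd5), complex III (mt-Cytb), complex IV (mt-Co1, mt-Co2 and mt-Co3) and complex V (mt-Atp6), and the small ribosomal RNA mt-Rnr1. They were taken by name from the count tables of single microglia on 13 plates, which list 29278 genes between them, and were read in the wells that held at least 1500 transcripts over the 17280 genes of the study's filtered table. Of the 10, 7 had a row in the table of every plate (mt-Nd1, mt-Nd2, mt-Nd4, mt-Nd5, mt-Cytb, mt-Co1 and mt-Rnr1), and these 7 carry the comparisons. A level is given as transcripts per 10000 transcripts of the filtered genes, and the 6 mRNAs with a row on every plate are also given as their sum.

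The mitochondrial genome of mammals is a small circle that encodes core subunits of the respiratory chain and of the ATP synthase, together with the tRNAs and rRNAs needed to translate them. Both strands are transcribed as long precursors that are cut into single RNAs, so neighbouring mRNAs start from a common precursor and reach different levels through processing and decay. All other subunits, and every protein that copies and transcribes the mitochondrial DNA, come from nuclear genes. Microglia, the resident macrophages of the brain, use oxidative phosphorylation at rest and shift their metabolism when activated.

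Cells came from male C57BL/6J mice fed control chow (NC) or a high-fat diet (HFD), and were sorted as CD45lo CD11b+ cells, 1 to a well, for CEL-Seq2, a method that counts molecules by a tag at the 3′ end of polyadenylated RNA. The study describes hypothalamic cells, whereas the labels of the plates name the hypothalamus, cerebellum, hippocampus and cortex together. The table of wells gives HFD of 1 day, 3 days, 7 days or 1 week (joined here as 1 week), 4 weeks, 9 weeks and 16 weeks, while the labels of the plates mention only 3 days. The cell names carry numbers of weeks, which differ between cells. In some names such a number stands beside a separate HFD length of 3 days. Whether these numbers are ages is not stated, and no other source used here gives the age of the mice. A replicate is an identifier in that table under 1 stem of cell names (L, MG or WT), and equal identifiers under different stems were taken as different replicates. Whether it is 1 mouse is not stated, so p-values measure the spread between these replicates, which may be technical. After 9 and 16 weeks some replicates enter on several plates, so there the p-values also measure the spread of 1 replicate between plates.

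Of 2496 wells, 1617 held at least 1500 transcripts, 722 of NC and 895 of HFD, with plate medians between 2188 and 4676 transcripts per cell. They gave 68 sums of at least 5 cells of 1 replicate on 1 plate, 28 of NC and 40 of HFD, from 44 replicates, of which 16 lie on more than 1 plate. Plate 5 held no such sum of NC. All 13 plates used the same set of well barcodes. Among microglial markers, Cx3cr1 and Csf1r were each detected in 99.8% of cells, P2ry12 in 99.1% and Sall1 in 72.2%. At least 3 UMIs of markers of another cell type were found in 46 cells (2.84%). The summed markers of other types ranged from 0.335 to 4.21 per 10000 in sums of NC and from 1.44 to 220 in sums of 4-week HFD, where the highest value came from replicate MG M21 on plate 5, with 209 per 10000 of neutrophil markers.

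The 10 transcripts differed in how far they can be told from nuclear copies of mitochondrial DNA, and the 3′ ends below are shown because CEL-Seq2 reads that end. Sequences are the sense strand of GENCODE M21 (GRCm38), 5′ to 3′, up to the last 60 bases of each transcript, and capitals mark bases that differ between a mitochondrial gene and the copy under it. In the first pair, mt-Nd2 (chrM:3914-4951, plus strand) and the pseudogene Gm13339 (chr2:22590024-22590533, minus strand) differ. In the other pairs, mt-Co1 (chrM:5328-6872), mt-Co2 (chrM:7013-7696), mt-Co3 (chrM:8607-9390) and mt-Atp6 (chrM:7927-8607), all on the plus strand, show no difference from Gm29216 (chr1:24615706-24616197), Gm28661 (chr1:24614885-24615565), Gm28437 (chr1:24613189-24613971) and Gm10925 (chr1:24613974-24614651), all on the minus strand.
mt-Nd2: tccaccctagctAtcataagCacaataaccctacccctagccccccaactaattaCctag
Gm13339: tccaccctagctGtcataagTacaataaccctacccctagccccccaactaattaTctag
mt-Co1: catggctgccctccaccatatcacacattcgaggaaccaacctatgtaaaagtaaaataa
Gm29216: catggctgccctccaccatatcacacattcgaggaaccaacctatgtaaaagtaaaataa
mt-Co2: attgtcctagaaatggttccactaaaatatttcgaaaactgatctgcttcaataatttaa
Gm28661: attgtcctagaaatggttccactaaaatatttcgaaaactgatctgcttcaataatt
mt-Co3: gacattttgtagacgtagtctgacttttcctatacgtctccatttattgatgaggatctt
Gm28437: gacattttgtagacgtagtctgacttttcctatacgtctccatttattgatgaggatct
mt-Atp6: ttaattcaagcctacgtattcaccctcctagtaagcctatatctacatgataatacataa
Gm10925: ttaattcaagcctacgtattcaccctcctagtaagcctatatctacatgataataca

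Further ends are shown for members without such a copy, mt-Nd1 (chrM:2751-3707) and mt-Rnr1 (chrM:70-1024), both on the plus strand.
mt-Nd1: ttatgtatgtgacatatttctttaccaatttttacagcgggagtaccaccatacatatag
mt-Rnr1: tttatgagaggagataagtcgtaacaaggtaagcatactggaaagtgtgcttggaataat

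Over the last 300 bases, mt-Co1 matched its copy at 300 bases, mt-Co3 at 299, and mt-Co2 and mt-Atp6 at 297 each, without a mismatch. The last 300 bases of mt-Nd2 held 10 mismatches to Gm13339, with a longest shared run of 129 bases. The best matches of mt-Nd5 (chrM:11742-13565) and mt-Cytb (chrM:14145-15288) were pseudogenes of chromosome 4. Over all nuclear transcripts aligned to each end, the longest shared run was 54 bases for mt-Nd5 and 41 for mt-Cytb. It was 17 bases for mt-Nd1 and 12 for mt-Nd4 (chrM:10167-11544), and no nuclear transcript aligned to the end of mt-Rnr1. The 4 copies without a mismatch lie side by side on chromosome 1, next to copies of mt-Nd3 (Gm28438) and mt-Nd4l (Gm10222), which are also identical over 297 and 294 bases at the 3′ end. None of the copies of members named here had a row in any plate table.

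**Figure D1:**
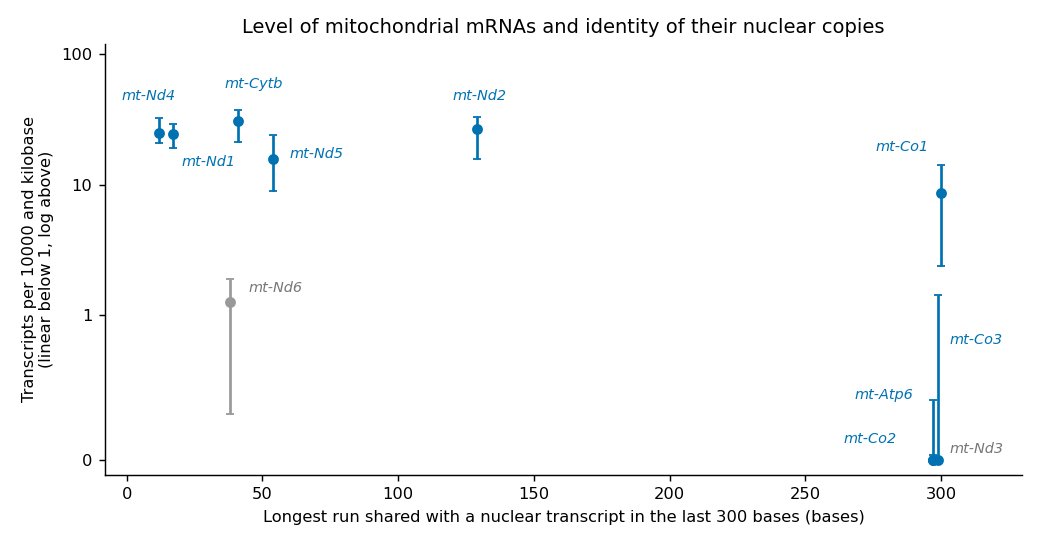
Level of 11 mitochondrial mRNAs (points, median over the plates that list the gene, bars from the lowest to the highest plate, in transcripts per 10000 and per kilobase of transcript, linear below 1 and logarithmic above) against the longest run of bases shared with an annotated nuclear transcript within the last 300 bases. Members are blue and other mRNAs grey, and mt-Co2, mt-Atp6 and mt-Nd3 share the point at 297 bases and 0. The mRNAs with shared runs of 297 or 299 bases had a median of 0, mt-Co1 with 300 bases had 8.71, the 5 members with shorter runs had between 15.9 and 31.0, and mt-Nd6, with 38 bases, had 1.27.

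The transcripts mt-Co2, mt-Co3 and mt-Atp6 were close to absent from the counts. The gene mt-Co2, which encodes a catalytic subunit of complex IV, had a row on 10 plates and 2 UMIs in 1195 cells. The gene mt-Co3, which encodes another core subunit of that complex, had a row on 6 plates and 50 UMIs in 680 cells, all of them in 42 cells of plate 10. The gene mt-Atp6, which encodes a subunit of the proton channel of the ATP synthase, had a row on 10 plates and 11 UMIs in 1195 cells, 8 of them on plate 7. Per kilobase of transcript, the scale of the plot of levels against nuclear copies, the median level over plates was 0 per 10000 for each of these, against 24.7 for mt-Nd1, 31.0 for mt-Cytb and 8.71 for mt-Co1. Among mRNAs that are no members, mt-Nd3 had a row on 6 plates and no count, and mt-Nd4l and mt-Atp8 had none. How the authors treated reads that map to several places was not given in the sources used here, and its part in these counts was not tested. None passed the filter on low counts in a diet comparison, and in the edgeR fits without that filter none of those tested was called, with adjusted p of at least 0.819.

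The 7 transcripts measured on every plate fell into groups by how they varied between plates. The 5 mRNAs mt-Nd1, mt-Nd2, mt-Nd4, mt-Nd5 and mt-Cytb spanned a narrow range. Over all cells of a plate, mt-Nd1 lay between 18.4 and 28.2 per 10000, which is a 1.54-fold range. For mt-Nd4 the levels were 28.6 to 45.2 (1.58-fold), and for mt-Cytb 24.3 to 42.7 (1.76-fold). The widest ranges among these 5 were those of mt-Nd2, 16.3 to 34.3 (2.11-fold), and mt-Nd5, 16.4 to 44.3 (2.70-fold). Plate 7 had the highest level of all 5, with 5 of its 50 NC cells above 500 per 10000 for the summed mRNAs. Without those cells its NC sum was 157 in place of 249.

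The mRNA mt-Co1, for the core subunit of complex IV, varied 5.90-fold, from 3.71 per 10000 on plate 8 to 21.9 on plate 11. It followed the stems of the cell names. Plates 6 to 9, with the stem WT, lay between 3.71 and 5.72, plates 1 to 3 between 12.5 and 13.5, and plates 4, 5 and 10 to 13 between 14.2 and 21.9, so that the WT plates did not overlap the others. The same 4 plates were within the range of the other plates for mt-Nd1, mt-Nd2, mt-Nd4, mt-Nd5 and mt-Cytb or above it.

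The ribosomal RNA mt-Rnr1 varied most, 7.27-fold, from 9.96 per 10000 on plate 12 to 72.4 on plate 1. The large ribosomal RNA mt-Rnr2, which is no member, went from 52.9 on plate 12 to 245 on plate 1, a 4.63-fold range with the same plates at both ends. The sum of the 6 mRNAs varied 1.62-fold, from 123 on plate 5 to 199.6 on plate 7. All 16 genes of the mitochondrial chromosome in the filtered table made up 241 to 466 per 10000. As plate and stem cannot be told apart from the day of the sort or of the library, diets were compared within plates.

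**Figure D2:**
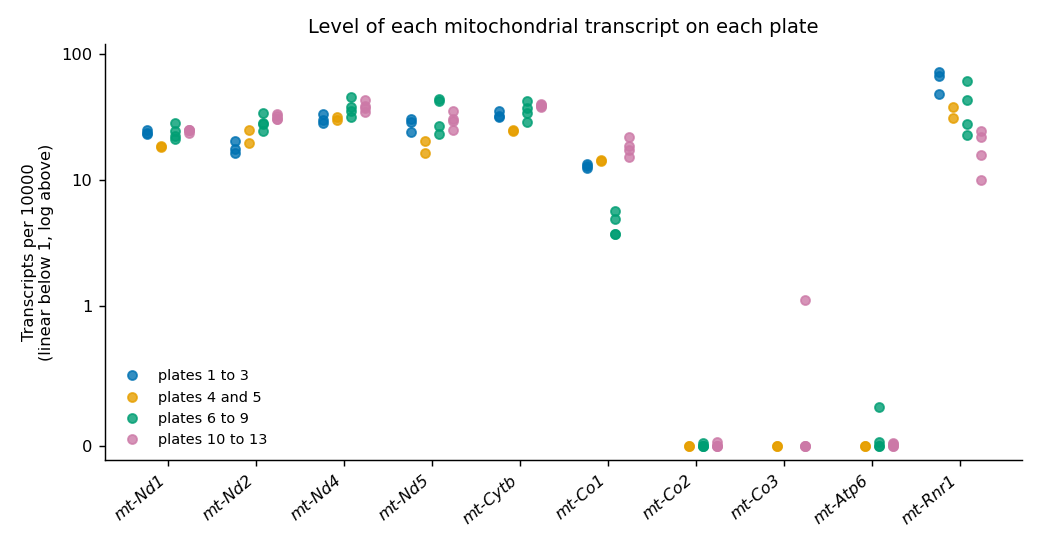
Level of the 10 transcripts on each plate (points, all cells of a plate pooled, in transcripts per 10000, linear below 1 and logarithmic above), coloured by sets of plates. The 5 mRNAs at the left stay within a 2.70-fold range or less, mt-Co1 is lowest on plates 6 to 9, mt-Co2, mt-Co3 and mt-Atp6 lie at or near 0 where they are listed, and mt-Rnr1 spans 9.96 to 72.4.

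The diet comparisons asked whether the share of any of these transcripts differed between HFD and NC on the same plates, by edgeR's quasi-likelihood test on the sums with the plate as a block, with Benjamini-Hochberg adjustment over all genes tested in each fit. No member passed the threshold of 0.05 at any length of HFD. This was 0 of 7 after 1 day (0 of 1116 genes called, 0%), 0 of 7 after 3 days (0 of 661, 0%), 0 of 7 after 1 week (3 of 1071, 0.28%), 0 of 7 after 4 weeks (0 of 1856, 0%), 0 of 7 after 9 weeks (1 of 1055, 0.0948%) and 0 of 7 after 16 weeks (0 of 936, 0%). DESeq2 also called no member at any length.

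At an unadjusted p under 0.05 the fits held 1 member after 1 day (background 5.47% of genes), 0 after 3 days (8.02%), 0 after 1 week (6.35%), 1 after 4 weeks (1.13%), 2 after 9 weeks (7.87%) and 1 after 16 weeks (7.26%). After 1 day, 4 weeks and 16 weeks that member was mt-Rnr1, and after 9 weeks the members were mt-Nd5 and mt-Co1. The fits used 6 sums of HFD and 6 of NC after 1 day, 4 and 5 after 3 days, 5 and 7 after 1 week, 3 and 2 after 4 weeks, 6 and 12 after 9 weeks, and 10 and 18 after 16 weeks. In the comparisons of 9 and 16 weeks some replicates enter once per plate, so the residual degrees of freedom are overstated. With 1 sum per replicate, the members called were also 0 at each length, while the genes called were 0, 4, 4, 5, 1 and 0 in the same order of lengths. After 3 days, 1 week and 4 weeks these sums also hold HFD cells of plate 5, which gave no sum of NC. Plate and diet cannot be told apart for those cells.

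**Figure D3:**
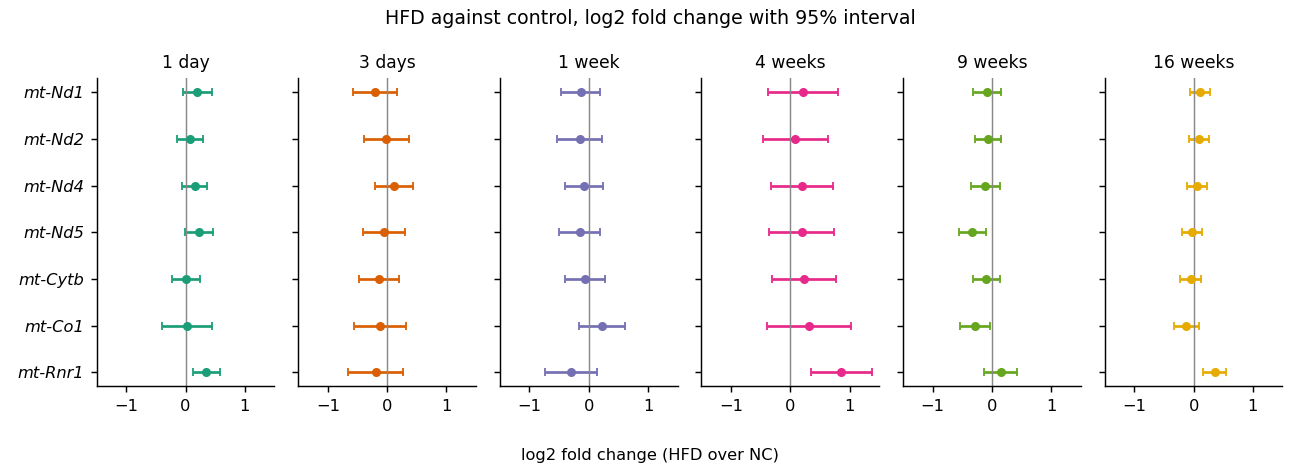
Fold change of the 7 transcripts at each length of HFD against NC of the same plates (points, log2 fold change from edgeR, bars, 95% interval). The intervals of the 6 mRNAs include 0 except those of mt-Nd5 and mt-Co1 after 9 weeks, and that of mt-Rnr1 lies above 0 after 1 day, 4 weeks and 16 weeks, although no adjusted p was under 0.05.

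After 3-day HFD, the length that the labels of the plates name, all 7 intervals included 0. The log2 fold changes ranged from -0.21 for mt-Nd1 (SE 0.18, 95% interval -0.57 to 0.16) to 0.12 for mt-Nd4 (SE 0.16, interval -0.21 to 0.44), with a median of -0.12 beside 0.02 for all genes. The lowest bound among the members was -0.66, for mt-Rnr1, and the highest was 0.44, for mt-Nd4. The 2 plates of this fit differed in direction for most members. The ratio of HFD to NC was 1.11 on plate 4 and 0.78 on plate 13 for mt-Nd1, 1.18 and 0.82 for mt-Cytb, and 1.40 and 0.69 for mt-Rnr1. Over 22 settings the log2 fold change of mt-Nd1 ranged from -0.36 to 0.22, and those of the other 6 members also took both signs. The summed mRNAs stood at 121.6 and 130 per 10000 in the HFD replicates and 113 in the NC replicate of plate 4, the last from 7 cells. On plate 13 they stood at 168 and 153 in HFD, within the 136 to 200.5 of the 4 NC replicates. On plate 5, with no NC, the HFD replicates had 94.5 and 103. The levels on plate 13 thus overlapped, and those of plate 4 rest on a single NC sum. The markers of other cell types were higher in the HFD sums of plate 4, at 9.39 and 4.26 per 10000 against 0.335, and on plate 13 Malat1 was at 1.41-fold of NC and the satellite-like Gm26870 at 0.58-fold, both without overlap. The immediate early and dissociation genes were at 2.05-fold of NC on plate 4 and 0.89-fold on plate 13. Their part in these levels was not tested.

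After 1-day HFD, mt-Rnr1, the RNA scaffold of the small ribosomal subunit, was above the NC mean of its plate in 6 of 6 HFD sums, as were mt-Nd1 and mt-Nd5. On plate 6 its level was 21.2, 22.4 and 29.4 per 10000 in HFD and 14.03, 21.9 and 25.3 in NC, so the groups overlapped. On plate 8 it was 28.4, 33.7 and 36.3 in HFD and 20.7, 22.9 and 27.0 in NC, with no overlap. The log2 fold change was 0.35 (SE 0.11, unadjusted p = 0.00313, adjusted p = 0.582 by edgeR). The 6 mRNAs had log2 fold changes from 0.01 to 0.23, with adjusted p of at least 0.779, and their sum was 1.13-fold higher on plate 6 and 1.09-fold higher on plate 8. The large ribosomal RNA mt-Rnr2 was lower in HFD on both plates, at 0.87-fold and 0.96-fold of NC. On plates 6 and 8, cells of 1-day HFD held 1.12-fold and 1.03-fold as many transcripts at the median, the nuclear RNA Malat1 was at 0.79-fold and 0.94-fold of NC, and the summed markers of other types were at 0.93-fold and 0.83-fold. Their part in the level of mt-Rnr1 was not tested.

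For mt-Rnr1, the comparison after 1 week joined plates that went opposite ways. On plates 7 and 9, where the label is 1 week, mt-Rnr1 stood at 41.8 and 29.2 per 10000 in HFD and at 81.4 and 56.4 in NC, 0.51-fold and 0.52-fold. On plates 4 and 13, where the label is 7 days, it stood at 36.4, 24.9 and 21.04 in HFD. The single NC sum of plate 4, from 7 cells, had 20.8. The 4 NC sums of plate 13 had a mean of 17.7, and their range included the HFD value there. The joint log2 fold change was -0.30 (SE 0.22, adjusted p = 0.947). It was -1.03 with the plates labelled 1 week alone (adjusted p = 0.165) and 0.41 with those labelled 7 days alone (adjusted p = 0.855). On plates 4 and 13 the summed markers of other cell types were at 7.49-fold and 2.04-fold of NC and the immediate early and dissociation genes at 2.43-fold and 1.59-fold. On plates 7 and 9 the markers of other types were at 0.78-fold and 1.31-fold, and the satellite-like transcript Gm26870 at 0.42-fold and 0.81-fold. Their part in the level of mt-Rnr1 was not tested. Each of plates 7 and 9 held 1 replicate per diet, so diet and replicate cannot be told apart there. The NC replicate of plate 7 also had the highest mRNA sum of all, 249 per 10000 against 153 in HFD. Without its 5 cells above 500 per 10000 its sum was 157, so this difference rests on 5 cells.

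After 4-week HFD, mt-Rnr1 was 90.3 per 10000 in the HFD replicate of plate 1 and 55.7 in the NC replicate. On plate 4 it was 31.8 and 44.3 in HFD and 20.8 in the single NC sum of 7 cells. The median cell of plate 4 had 17.6 and 23.6 per 10000 in HFD and 16.5 in NC, and the coefficient of variation between cells of the replicate at 44.3 was 161%. On plate 1 the median cell had 73.9 in HFD and 42.5 in NC. All 3 HFD sums lay above NC of their plate, and the log2 fold change was 0.86 (SE 0.24, unadjusted p = 0.00318, adjusted p = 0.995). With 1 sum per replicate the value was 0.93 (adjusted p = 0.0594). Those sums add HFD cells of plate 5, which had no sum of NC. MG M20 and MG M21 stood at 28.8 and 71.5 per 10000 there. In 1 model of all lengths the log2 fold change was 0.43, the lowest over the alternatives. The 6 mRNAs had log2 fold changes from 0.08 to 0.31, with intervals that all included 0. Markers of other cell types stood at 10.1 and 16.5 per 10000 in the HFD sums of plate 4 and 0.335 in its NC sum, and the immediate early and dissociation genes were at 2.91-fold of NC there. On plate 1 the markers of other types were at 0.73-fold of NC and the immediate early and dissociation genes at 0.70-fold. Without the cells that held 3 or more of their UMIs, mt-Rnr1 had a log2 fold change of 0.62 (unadjusted p = 0.0702, adjusted p = 0.999).

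After 9-week HFD, mt-Nd5, a core subunit of the proton-pumping arm of complex I, was lower than the NC mean on each of 3 plates. On plate 10 its level was 22.2 and 19.2 per 10000 in HFD and 34.3 to 38.0 in the 4 NC sums, without overlap. Other members were lower on that plate too, without overlap between the diets, at 0.61-fold of NC for mt-Nd1, 0.63-fold for mt-Nd4 and 0.80-fold for mt-Cytb. How many of all genes showed no overlap there was not counted, so this does not set the members apart. On plates 11 and 12 mt-Nd1 and mt-Nd4 were at 1.07-fold to 1.12-fold. For mt-Nd5 the level on plate 11 was 37.5 and 29.9 in HFD and 33.4 to 39.4 in NC, and on plate 12 it was 30.8 and 22.3 against 27.4 to 34.8. The groups overlapped on plates 11 and 12. The log2 fold change was -0.34 (SE 0.11, unadjusted p = 0.00416, adjusted p = 0.293), and the ratio on plate 10, 0.57, was the lowest of the 3. The fold change was -0.54 without MG M7 and -0.14 without MG M8, so its size rests on MG M8. Malat1 was below NC on the same 3 plates, at 0.71-fold, 0.88-fold and 0.79-fold. On plate 10 Gm26870 was at 1.72-fold of NC, without overlap, and the median depth of a cell at 1.27-fold. Their part in the level of mt-Nd5 was not tested. The mRNA mt-Co1 had a log2 fold change of -0.29 (SE 0.13, unadjusted p = 0.0230, adjusted p = 0.454), with ratios of 0.72, 0.69 and 1.04 on plates 10, 11 and 12. The ribosomal RNA mt-Rnr2, which is no member, had a log2 fold change of -0.45 (SE 0.13, adjusted p = 0.174). Over 20 settings of the fit its value ranged from -0.81 to -0.14, and it was called in 3 of them, which were no filter on low counts, without MG M7 and without plate 11. The fit without MG M7 leaves 1 HFD replicate and is no test over replicates.

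In the same comparison the 2 HFD replicates differed in mt-Rnr1, most of all on plate 11. Replicate MG M7 had 20.9, 44.4 and 10.4 per 10000 on plates 10, 11 and 12, and MG M8 had 13.1, 15.3 and 8.99, beside NC means of 24.1, 18.5 and 10.01. The log2 fold change was 0.15 (SE 0.14, adjusted p = 0.846), and it was -0.45 without MG M7 and 0.59 without MG M8, the latter with an adjusted p of 0.0410. Each of these leaves 1 HFD replicate, whose 3 plates enter as separate sums, so that replicate is assumed to vary like the others and the p is no test over replicates of the diet. The direction thus rests on MG M7 and on its value on plate 11, without which plate the fold change was -0.30. The immediate early gene Jun, which is induced while cells are dissociated, fell by 1.40 on the log2 scale in this fit (SE 0.29, adjusted p = 0.00471), and the summed immediate early and dissociation genes were at 0.58 to 0.72 of NC on the 3 plates. Their part in the mitochondrial levels was not tested.

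After 16-week HFD, mt-Rnr1 was above the NC mean of its plate in 8 of 10 sums, which came from 5 replicates. It was 79.7 and 58.2 per 10000 in the HFD replicate L4 on plates 2 and 3, against 57.0 and 37.9 in the NC replicate L3. On plate 10 it was 35.1 and 35.0 in HFD and 20.6 to 27.2 in the 4 NC sums. The groups did not overlap there, while on plate 11 (20.1 and 27.97 against 16.3 to 20.3), plate 12 (8.66 and 12.2 against 8.24 to 11.9) and plate 13 (20.9 and 11.9 against 10.8 to 26.1) they did. The log2 fold change was 0.36 (SE 0.10, unadjusted p = 0.000367, adjusted p = 0.194). It was 0.41 with an adjusted p of 0.0368 without MG M10, and 0.43 with an adjusted p of 0.0216 without plate 13, so the call depends on that replicate and plate. With 1 sum per replicate it was 0.27 (unadjusted p = 0.0212, adjusted p = 0.995). The ratio of HFD to NC was 1.40 and 1.54 on plates 2 and 3, and 1.46, 1.30, 1.04 and 0.93 on plates 10 to 13.

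For the mRNAs this comparison had the most sums and the narrowest intervals. Its 10 sums of HFD came from 5 replicates and its 18 of NC from 9. Replicates on several plates entered once per plate, so the intervals overstate the precision over replicates. The 6 log2 fold changes after 16 weeks ranged from -0.12 for mt-Co1 (interval -0.33 to 0.09) to 0.11 for mt-Nd1 (interval -0.07 to 0.28), and those of mt-Nd2, mt-Nd4, mt-Nd5 and mt-Cytb had bounds between -0.23 and 0.26. The sum of the 6 was above the NC mean of its plate in 5 of 10 sums and below it in 5. The ribosomal RNA mt-Rnr2 was below NC on 5 of 6 plates, with a median ratio of 0.92, whereas mt-Rnr1 was above NC on 5 of 6, with a median ratio of 1.35. Malat1, a nuclear RNA used as a measure of RNA composition, was below NC on 5 of 6 plates, and the immediate early and dissociation genes on 4 of 6. The summed markers of other cell types were above NC on 5 of 6 plates, with ratios from 0.90 to 2.82, and those of microglia below NC on 5 of 6, with ratios from 0.85 to 1.08. Without the cells that held 3 or more UMIs of other types, mt-Rnr1 had a log2 fold change of 0.38 (adjusted p = 0.191). The part of these measures in the ribosomal RNA levels was not tested.

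**Figure D4:**
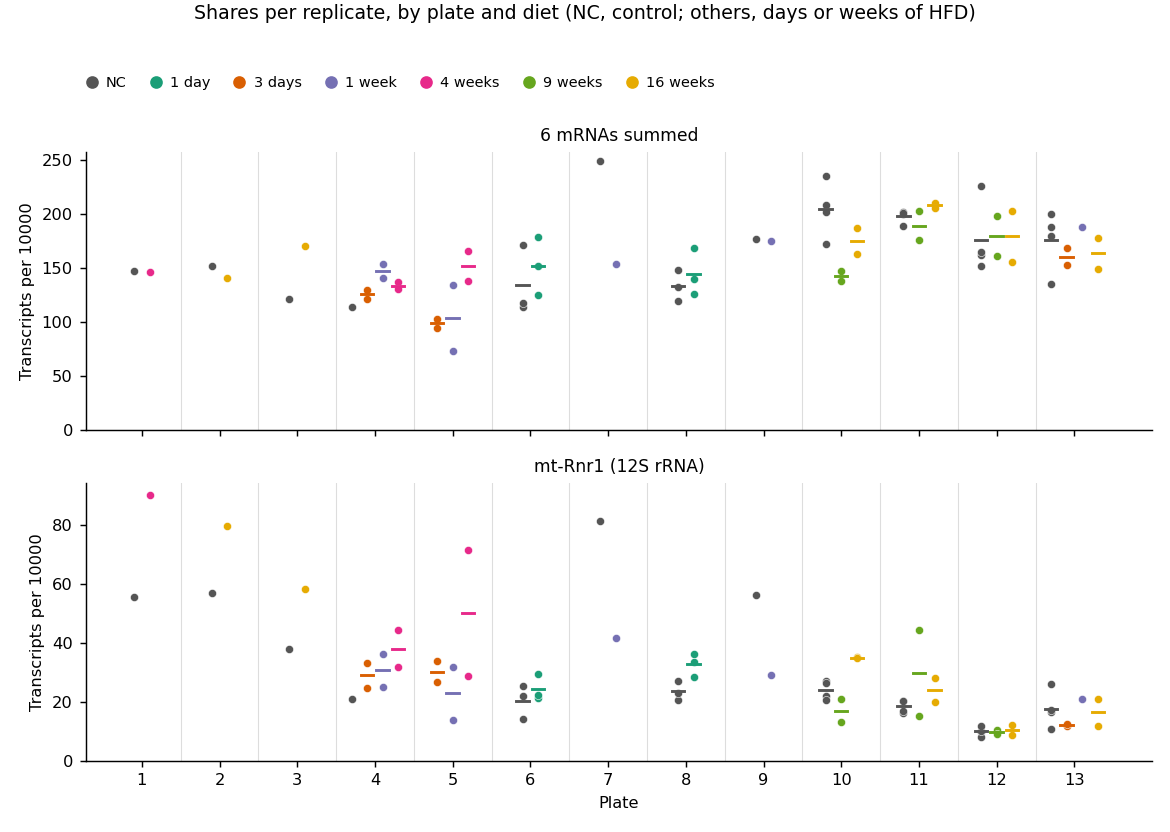
Sum of the 6 mRNAs (top) and mt-Rnr1 (bottom) in transcripts per 10000 for each sum of at least 5 cells of 1 replicate (points), by plate and coloured by diet, with the mean (bar) where a diet has more than 1 sum on a plate. The mRNA sums of NC overlap those of at least 1 length of HFD on plates 6, 8 and 10 to 13, and NC stands at 249 on plate 7, while mt-Rnr1 differs more between plates than between diets.

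Over all sums, the median of the summed mRNAs was 172 per 10000 in NC (range 113 to 249, n = 28). It was 146 after 1 day (125 to 178, n = 6), 126 after 3 days (94.5 to 168, n = 6), 153 after 1 week (73.5 to 188, n = 7), 138 after 4 weeks (131 to 165, n = 5), 169 after 9 weeks (138 to 203, n = 6) and 174 after 16 weeks (141 to 211, n = 10). All neighbours in this order overlapped in range, and the lengths lie on different plates, so the order is not one of diet alone.

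Nuclear genes of the same machinery gave little to set beside these values. A list of 79 nuclear subunits of complexes I to V, all of them in the filtered table, had 3 genes that passed the filter on low counts after 1 day, 0 after 3 days, 5 after 1 week, 15 after 4 weeks, 3 after 9 weeks and 2 after 16 weeks. None was called in either direction. The 15 tested after 4 weeks had a median log2 fold change of 0.03, beside 0.04 over all genes, with 9 higher and 6 lower. The 5 tested after 1 week had a median of -0.43, beside 0.01 over all genes, with 1 higher and 4 lower. Of these 5, 2 had an unadjusted p under 0.05 by edgeR, beside 6.35% of all genes tested. Of 32 genes that copy or transcribe mitochondrial DNA or process its RNA, 2 were tested after 4 weeks and 0 at any other length, again with no call. At this depth most nuclear partners of the mitochondrial mRNAs were below what the sums can test.

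Between single cells, the shares of the members went up and down together. For this comparison each cell was thinned to 1000 UMIs, and Spearman's rho was computed between the shares of 2 members over the cells of 1 plate (79 to 165 cells, 1617 in all). These values are descriptions, as the cells of a plate share the plate and their replicates. The 21 pairs had medians over the 13 plates from 0.18 (mt-Co1 with mt-Rnr1) to 0.35 (mt-Nd2 with mt-Nd4), and 19 pairs were above 0 on all 13 plates. The other 2, mt-Nd5 with mt-Rnr1 and mt-Cytb with mt-Co1, were above 0 on 12. The pairs among mt-Nd1, mt-Nd2, mt-Nd4, mt-Nd5 and mt-Cytb had medians of 0.30 to 0.35, and those of mt-Co1, the mRNA with the fewest UMIs per cell, with the other mRNAs of 0.20 to 0.27. Pairs with mt-Rnr1 had medians of 0.18 to 0.29.

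**Figure D5:**
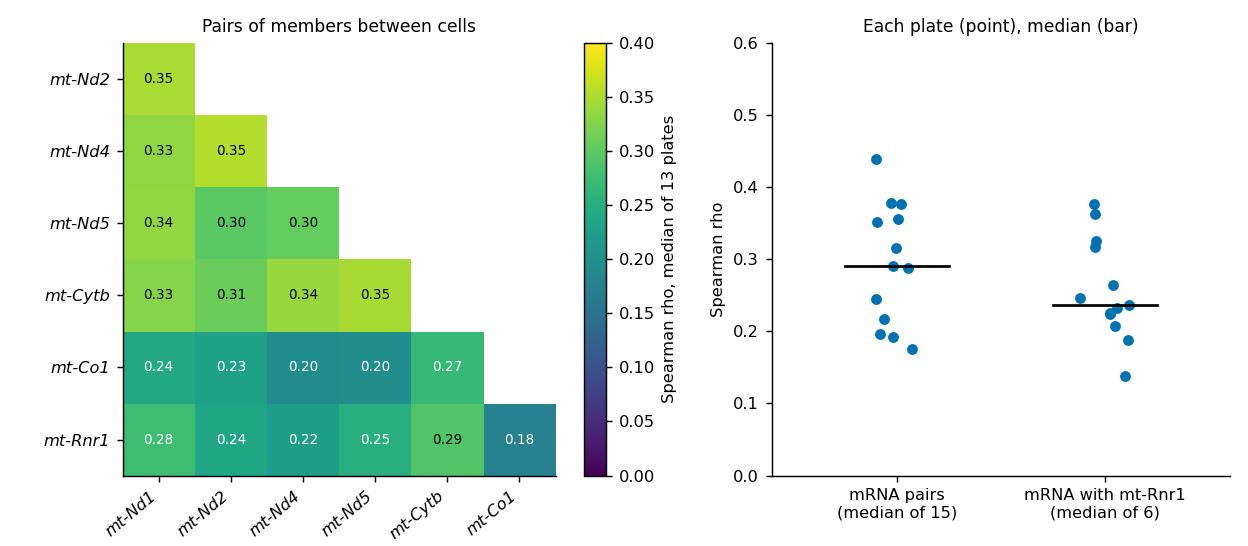
Left, median over 13 plates of Spearman's rho between cells for each pair of the 7 transcripts, in cells thinned to 1000 UMIs, with the value in each square. Right, the median over the 15 mRNA pairs and over the 6 pairs with mt-Rnr1 on each plate (points), with the median of the plates (bar). All 13 plates lie above 0, between 0.18 and 0.44 for mRNA pairs and between 0.14 and 0.38 for pairs with mt-Rnr1.

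The size of these correlations depends on how many UMIs stand behind each share. In the thinned cells the mean per plate was 1.72 to 2.93 UMIs for mt-Nd1 and 0.333 to 2.29 for mt-Co1. Without thinning the median over pairs was 0.46 in place of 0.29, and with cells thinned to 500 UMIs it was 0.18. Sums of several members correlated more. The 4 complex I mRNAs together and mt-Cytb with mt-Co1 had a median rho of 0.52 (0.38 to 0.71 over plates). The 6 mRNAs and mt-Rnr1 had 0.39 (0.21 to 0.56). Between single genes, mt-Rnr1 and the non-member mt-Rnr2, at a mean of 14.3 UMIs per thinned cell, had 0.57 (0.19 to 0.65). Within single replicates of at least 10 cells on a plate, the median over pairs was 0.29 as well, from 1573 cells. With shares taken over transcripts outside the mitochondrial chromosome it was 0.30.

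The nuclear respiratory genes did not share this pattern at a level these counts can show. The sum of the 79 nuclear subunits, at a mean of 5.20 UMIs per thinned cell, had a median rho of 0.06 with the 6 mRNAs (-0.06 to 0.21, above 0 on 8 of 13 plates). The genes of mitochondrial DNA expression had -0.0046, at 0.895 UMIs per cell, and the immediate early and dissociation genes had 0.06, at 1.77 UMIs per cell. The share of the 6 mRNAs was also little related to depth among cells over the minimum, with a median rho of 0.02 (-0.26 to 0.26).

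Among 2421 genes outside the mitochondrial chromosome that were detected in at least 20% of cells, 98.9% had a median rho within 0.1 of 0 with the summed members. The highest were Cst3 (0.14), a secreted protease inhibitor and one of the most abundant microglial mRNAs, Apoe (0.13), a lipid carrier, Tmsb4x (0.13), which binds actin monomers, Rpl26 (0.13), a ribosomal protein, and C1qb (0.13), a complement subunit. The lowest were Gm10717 (-0.13), Gm21738 (-0.12), Mib2 (-0.11), a ubiquitin ligase, Cx3cr1 (-0.11), the fractalkine receptor, and Rapgef1 (-0.11), an exchange factor of small GTPases. Of these 10, Rpl26 was above 0 and Gm21738 below 0 on every plate. Values this weak in sparse counts are given as the ends of the list and not as a finding.

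The share of the 6 mRNAs varied between cells well beyond counting error. In a sum of cells of 1 replicate on 1 plate, its SD over cells was 1.63 to 8.16 times the SD that counting alone gives at the cells' depth, with a median of 3.16, and it was above it in 68 of 68 sums. The coefficient of variation had a median of 48.4%, and the one that counting alone gives had a median of 14.6%. The cell at the 90th percentile had a median of 3.19 times the share of the cell at the 10th. For mt-Rnr1 the SD was 0.931 to 12.3 times the counting SD, with a median of 2.02. The counting SD assumes independent UMIs, so this comparison covers counting error only.

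By diet, the median ratio of the observed to the counting SD of the 6 mRNAs was 3.16 in NC (n = 28), 2.23 after 1 day (n = 6), 4.63 after 3 days (n = 6), 2.98 after 1 week (n = 7), 3.58 after 4 weeks (n = 5), 2.59 after 9 weeks (n = 6) and 3.45 after 16 weeks (n = 10). These medians mix plates, which differ in depth. The counting SD falls as depth rises, so the ratio is larger in deeper cells of equal spread. On plate 13 the ratio was 5.95 and 5.18 in the 3-day sums and 1.97, 2.47, 3.08 and 3.27 in the 4 NC sums, without overlap. On plate 4 it was 4.499 and 4.76 after 3 days and 4.43 in the single NC sum. The difference in spread was not tested, and both 3-day cells above 500 per 10000 lay on plate 13, where Malat1 and Gm26870 also differed. The highest ratio in NC, 8.16, was that of plate 7. Of all 1617 cells, 90% lay between 47.0 and 308 per 10000 and 13 were above 500, 10 of them in NC. None of these 13 held 3 or more UMIs of markers of another cell type, and their median depth was 2565 transcripts.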

How the data were processed

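Single microglia on 13 plates were measured by CEL-Seq2. Per the study's methods and the submitters' processing notes, reads were mapped to mm10 (GRCm38) with STAR and counted on genes with featureCounts, and the authors deposited, per plate, an estimated count of transcripts per gene and well, with no normalization. From the values, it is the number of UMIs corrected for chance repeats of a 6-base tag. Of the filtered table only its gene names were read, and 34 of its columns of cells were not mapped or used. The deposited table of wells gave diet, length and replicate.

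Estimated counts were summed over the cells (at least 5) of 1 replicate on 1 plate, rounded, and fitted by edgeR 4.0.16 in R 4.3.3 (TMM, filterByExpr, quasi-likelihood test, two-sided, Benjamini-Hochberg adjustment over all genes tested, threshold 0.05), with plate as a block. Intervals are 95% and use the fit's own degrees of freedom. DESeq2 1.42.0 was the other tool. Correlations used cells thinned to 1000 UMIs. Depth per sum was 22774 to 219199 transcripts. Copies were sought with blastn 2.17.0 among GENCODE M21 transcripts, so copies outside annotated transcripts were not seen. Cells were sorted singly and no doublet caller was run.

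The members and lists were chosen with earlier results of these data known. Named are all members, other mitochondrial genes by level, list genes past the threshold (up to 5 by p), the 5 genes most and least correlated with the summed members, and Malat1 and Gm26870 as measures of RNA composition. The correlations and shares of mt-Rnr2 by diet were chosen after its values were seen, as were the split of the 1-week label and the limit of 500 per 10000.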

Additional observations from a re-analysis of the deposited data

Results flagged for a closer look

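In 7 cases a value lay far from the rest of their group of 4 to 10 sums, out of 80 groups examined, where chance flags about 1 in 20. In NC, replicate MG M2 was lowest of 4 on plate 10 for mt-Cytb (35.0 per 10000, next 41.8) and on plate 11 for the summed mRNAs (189, next 201), and MG M4 was highest of 4 on plate 12 for mt-Co1 (25.3, next 15.6). After 1 week, MG M22 on plate 5 was lowest of 7 for mt-Nd4 (20.02, next 32.4), from 8 cells. After 4 weeks, MG M21 on plate 5, the sum with neutrophil markers, was highest of 5 for mt-Nd4 (41.3, next 31.1), and L2 on plate 1 was highest for mt-Nd5 (32.2, next 22.0). The groups by length of HFD mix plates, and the NC sum of plate 1 had 29.2 for mt-Nd5. After 9 weeks, MG M7 on plate 11 was highest of 6 for mt-Rnr1 (44.4, next 20.9).

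Wells below the minimum, which entered the diet comparisons only in the alternative with a minimum of 1000 transcripts, held a larger share of the 6 mRNAs. In 704 wells of 100 to 1500 transcripts the share was above that of the cells of the same plate on 13 of 13 plates, with a median ratio of 1.65. It was 383 per 10000 in wells of 100 to 500 transcripts and 237 in wells of 500 to 1500, against 157 to 163 in the classes above the minimum.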

How the results depend on the processing

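Over the 6 comparisons, 137 alternatives were fitted and 134 called no member: DESeq2, no TMM, totals without mitochondrial genes, no filter, no plate term, 1 model of all lengths, 1 sum per replicate, other minimums per well, cells without markers of other types, each replicate or plate left out, and either 1-week label alone, the last chosen after seeing the data. The 3 exceptions each called 1 member, mt-Rnr1: after 9 weeks without MG M8, and after 16 weeks without MG M10 or without plate 13. Leaving out single replicates thus gave 0 to 1 calls after 9 and 16 weeks and 0 at the other lengths. The log2 fold change of mt-Rnr1 changed sign after 3 days with no filter (0.14), no plate term (0.21) and without plate 13 (0.56), after 1 week with the 7-day label alone (0.41), and after 9 weeks without plate 11 (-0.30). With single replicates left out it ranged from -0.54 to -0.04 after 3 days, from -0.55 to -0.03 after 1 week and from -0.45 to 0.59 after 9 weeks. Without plate 8 it was 0.23 after 1 day, in 1 model of all lengths 0.43 after 4 weeks, and with no plate term 0.59 after 16 weeks. The cause was not tested. Taken over all genes listed on every plate, a larger denominator by construction, the median sum of mRNAs was 126 per 10000 in NC, 119 after 1 day, 85.9 after 3 days, 113 after 1 week, 108 after 4 weeks and 128 after 16 weeks. The other 50 of 56 medians moved by less than the SD between sums. The median rho was 0.460 without thinning and 0.175 with 500 UMIs, which hold more and fewer counts by construction. Depth limits the fits to 661 to 1856 genes. No paired analysis was possible by replicate number because no identifier occurs in both diets under 1 stem of cell names and nothing ties equal numbers under different stems, and the plate is the block of the fits.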
